A study of Mus musculus with 24 samples.

Results

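Early and late projected night were compared in the mouse adrenal gland: circadian time 14 (CT14), 2 h after lights would have gone off, against circadian time 22 (CT22), 2 h before they would have come on. The 8 arrays were chosen by their titles. CT14 arrays are those titled 50 or 74 h after lights off, CT22 arrays those titled 58 or 82 h, and each time point has 1 unlettered array and 1 lettered B. They are 8 of the 24 arrays of a series that sampled whole adrenals every 4 h in constant darkness, on Affymetrix mouse expression arrays. All groups are wild-type (labelled wt), male, 3 months old and of strain C57B/6J. They had 2 weeks of 12 h light and 12 h darkness before release into constant darkness, and no other treatment is labelled. The comparison asks which transcripts differ between the start and the end of the projected night when neither time carries a light cue.

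Within each group 1 pair of arrays held nearly the same values. The 50 h array and the 74 h B array differed by at most 1.053-fold over the 40901 probe sets where both reached a signal of 50, and the 58 h B and 82 h B arrays by at most 1.053-fold over 40818. The SD of the log2 ratio was 0.042 within each of these pairs, against 0.217 to 0.326 for the other pairs of arrays of the same circadian time. Each pair, closer than arrays usually are, was averaged and counted as 1 sample. This left 3 profiles at each time, 6 of the 18 profiles of the series. Values below are given in the order 50 h B, the mean of 50 h and 74 h B, and 74 h for CT14, then 58 h, the mean of 58 h B and 82 h B, and 82 h for CT22. Whether each array had its own mouse is not labelled. The p-values therefore reflect the spread among these samples alone, and that spread may be technical.

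The circadian clock of a cell is a loop of transcription factors. ARNTL (BMAL1) and CLOCK bind E-boxes and drive the Period and Cryptochrome genes, whose proteins repress them, and the nuclear receptors NR1D1 and NR1D2 (REV-ERB alpha and beta) repress Arntl itself. The D-box factors DBP, TEF and HLF carry this rhythm on to output genes. The adrenal cortex releases glucocorticoid with a daily rhythm that in nocturnal rodents peaks around the onset of night, under the pituitary hormone ACTH, the splanchnic nerve and the gland's own clock. The medulla in its centre makes adrenaline.

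The tissue label held: Cyp11b1, the last enzyme of corticosterone synthesis, lay between 13.39 and 13.48 and Th, which starts catecholamine synthesis in the medulla, between 12.42 and 12.65 on the log2 scale in all 6 profiles. All levels are log2(signal + 51), where 51 is the 10th percentile of the deposited signals, which understates the fold changes of dim genes. Array medians lay between 8.24 and 8.31. The ratio of 5' to 3' signal was 1.03 to 1.15 for Gapdh, with overlapping groups. For pyruvate carboxylase it was 0.256 to 0.311 in the 4 CT14 arrays and 0.209 to 0.240 in the 4 CT22 arrays, without overlap. The 3' signal of 18S rRNA was 5228 to 5439 in the CT14 arrays and 5475 to 5712 in the CT22 arrays, also without overlap. The part of either difference in the results was not tested. The number of arrays limits the precision.

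Between CT14 and CT22, 614 of 13880 tested genes changed (4.42%) at a Benjamini-Hochberg adjusted p under 0.05 in limma. At CT22, 232 genes were higher (1.67%) and 382 lower (2.75%), so that 62.2% of the changes were falls. Most were small: the median rise was 0.38 and the median fall -0.39 on the log2 scale, or 1.3-fold and 1.31-fold. Only 9 genes rose and 18 fell by 2-fold or more. The 3 profiles of one time lay wholly above or below those of the other for 613 of the 614, the exception being Tmem71. Over all tested genes this held for 9.08% upward and 13.8% downward, and the median difference was -0.02. In whole glands fewer cells of a type and less RNA per cell cannot be told apart.

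These counts depended on individual profiles. Without 50 h B the test called 53 genes higher and 77 lower, without the mean of 50 h and 74 h B 135 and 185, and without 74 h 72 and 228. The counts were 141 and 196 without 58 h, 71 and 188 without the mean of 58 h B and 82 h B, and 353 and 554 without 82 h. Quantile normalization gave 324 higher and 311 lower, or 51% higher in place of 37.8%. In a fit to the 6 profiles alone, where the spread rests on 3 profiles a side, 32 and 108 were called. Of 70 called genes that are named below, 29 kept their call without each profile in turn and 22 did so under every alternative that tested them. An alternative that left a gene untested could not end its call. Pdxk, for one, was untested where probe sets marked _a_at, _s_at or _x_at were left out. These 22 are Per2, Nr1d2, Dbp, Tef, Wee1, Tspan4, Pdxk, Fabp7, Col5a3, Lypd6, Gm36723, Crym, Slc30a2, Hspa1a, Hspa1b, Gstt2, Slc7a10, Hmgcs1, Fkbp5, Herpud1, Manf and Alas1. Where another gene lost its call without a profile, that profile is named beside it, with the adjusted p without it.

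**Figure D1:**
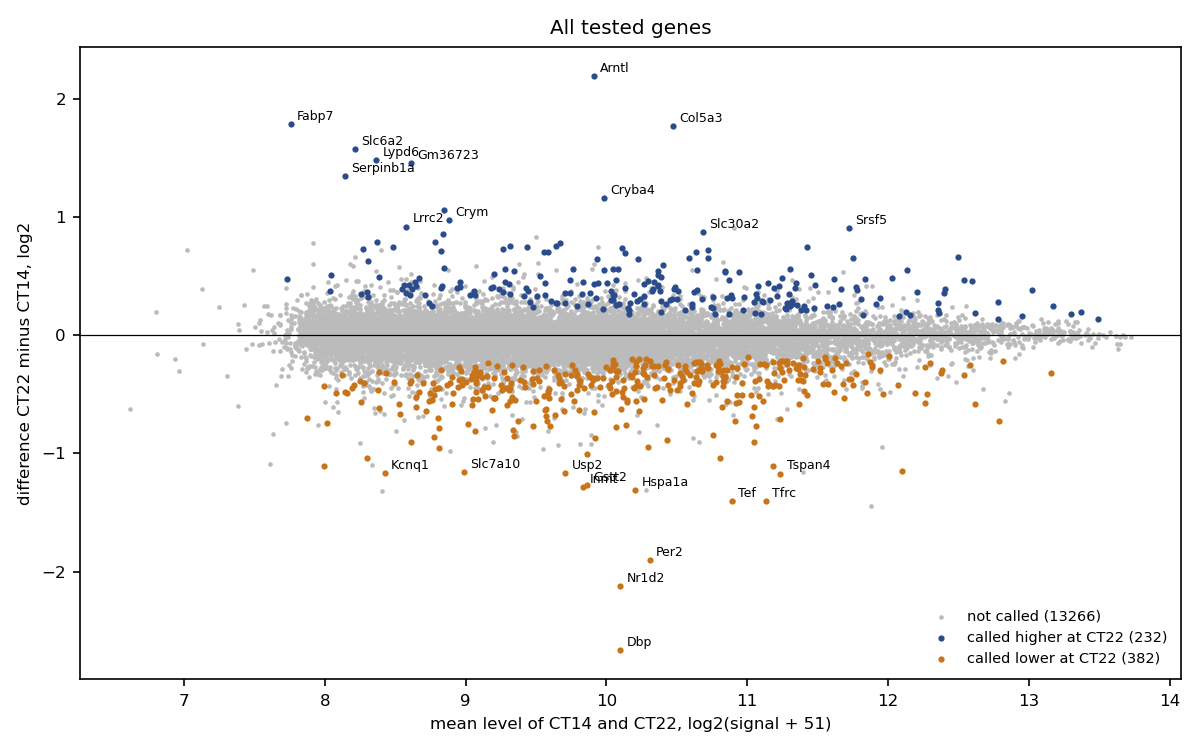
Every tested gene, by mean level of CT14 and CT22 (horizontal axis, log2 of signal + 51) and difference CT22 minus CT14 (vertical axis, log2). Blue points are the 232 genes called higher at CT22, orange points the 382 called lower and grey points the rest. Names mark the 12 largest rises and 12 largest falls with groups that did not overlap, from 2.2 for Arntl to -2.67 for Dbp.

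The core clock was split at these times. Of 18 tested core clock genes 1 was higher at CT22, 3 were lower and 14 did not pass. Over all genes 1.67% were called higher and 2.75% lower. The median difference of the list was -0.14 against -0.02 over all genes. Arntl was the gene with the largest rise among all called genes. Its level was 8.67, 9.43 and 8.34 at CT14 and 11.12, 10.94 and 10.97 at CT22. The CT14 profiles spread over more than 1 log2 unit, and all of them lay far below the CT22 profiles, which were close together. The rise was 2.2 ± 0.21 (SE of the 12-profile fit, 3 profiles a group), or 4.59-fold (limma, adjusted p = 0.00042). Another, dimmer Arntl probe set showed 0.06 (adjusted p = 0.762). The name of the brighter one ends in _a_at. The call ended when probe sets marked _a_at, _s_at or _x_at were left out.

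The repressors that were called went the other way. Nr1d2, which represses Arntl, was at 11.34, 10.90 and 11.25 at CT14 and at 8.61, 9.50 and 9 at CT22, with no overlap. It fell by 2.12 ± 0.19 (SE), or 4.36-fold (limma, adjusted p = 0.000207). Per2, a Period repressor, was at 11.42, 11.26 and 11.10 and then at 9.75, 9.04 and 9.28. All its CT14 profiles lay more than 1 log2 unit above all CT22 profiles, and the gene fell by 1.90 ± 0.22 (SE; 3.74-fold, adjusted p = 0.00158). A dimmer Per2 probe set fell by 0.26 (adjusted p = 0.0401). Cry2, a Cryptochrome repressor, went from a mean of 9.64 ± 0.08 (SD) to 9.20 ± 0.15, a fall of 0.44 ± 0.10 (SE; 1.35-fold, adjusted p = 0.0323). Its groups did not overlap, but the call was lost without each profile other than 82 h (adjusted p 0.0585 to 0.116).

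Not all members of the loop differed between these times. Cry1 stood at 9.80, 9.99 and 9.62 at CT14 and at 10.06, 9.66 and 9.84 at CT22, with overlapping groups and a difference of 0.05 ± 0.11 (SE; adjusted p = 0.869). Nr1d1, the relative of Nr1d2, also overlapped, with 8.36, 7.54 and 8.38 against 7.28, 8.11 and 7.97 (-0.30 ± 0.25, adjusted p = 0.574). Both time points lay on the same side of these genes' daily range. Cry1 was at a mean of 7.52 and Nr1d1 at 10.72 at CT6, within the same set of arrays. Per1, at 10.07, 10.06 and 9.96 and then 9.22, 9.49 and 8.49, did not overlap but spread widely at CT22, and the difference of -0.96 ± 0.29 missed the threshold (adjusted p = 0.0909). Clock showed 0.26 (adjusted p = 0.0609) and Bhlhe40, an E-box repressor, -0.52 (adjusted p = 0.267), where the 82 h profile at 10.69 lay among the CT14 values. Differences of the other uncalled members, Npas2, Per3, Rora, Rorb, Bhlhe41, Ciart, Csnk1d, Csnk1e and Btrc, ran from -0.27 to 0.23. Without 82 h the list had 5 lower members in place of 3.

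**Figure D2:**
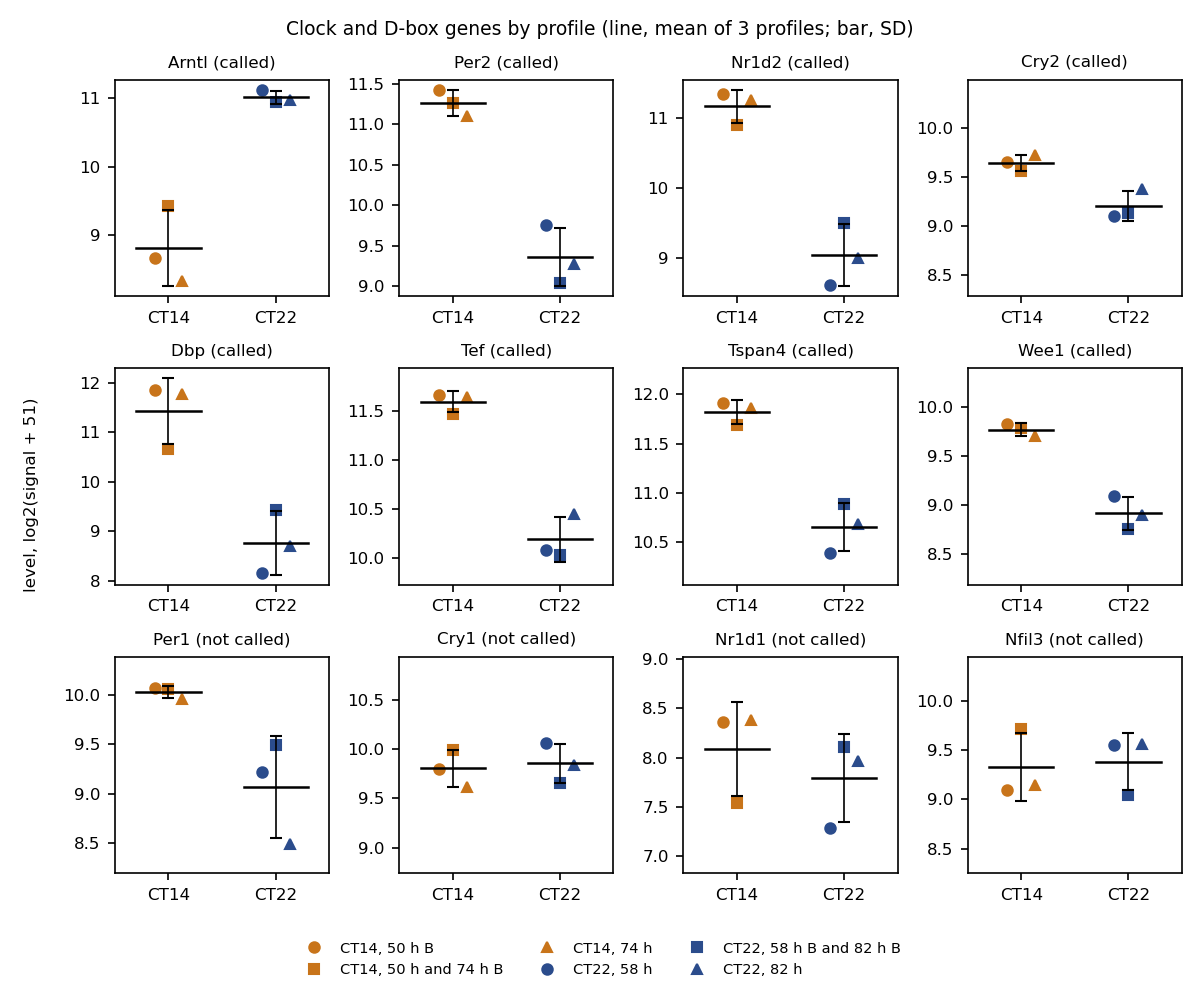
Levels of 12 clock and D-box genes (vertical axes, log2 of signal + 51, each spanning its own range) in the 3 profiles of CT14 (orange) and CT22 (blue). Lines are means and bars SDs of 3 profiles. Arntl is higher at CT22 in every profile, Per2, Nr1d2, Cry2, Dbp, Tef, Tspan4 and Wee1 are lower in every profile, and Cry1, Nr1d1 and Nfil3 overlap.

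The course over the day placed the comparison in each gene's cycle. Arntl averaged 10.76 at CT2 and 8.80 at CT6, so that CT22 and CT2 were its high times on this set of arrays. Dbp averaged 12.43 at CT6, above its CT14 mean of 11.43, and 9.48 at CT2, above its CT22 mean of 8.76. Nr1d2 averaged 11.37 at CT6 and 9.83 at CT2. Circadian times 10 and 18 were measured on a second set of arrays, told apart by a control probe set, so their levels are given without a comparison: at CT18, midway between both times, Arntl was at 9.78, Nr1d2 at 10.44, Dbp at 9.63, Per2 at 10.27 and Cry1 at 10.23.

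**Figure D3:**
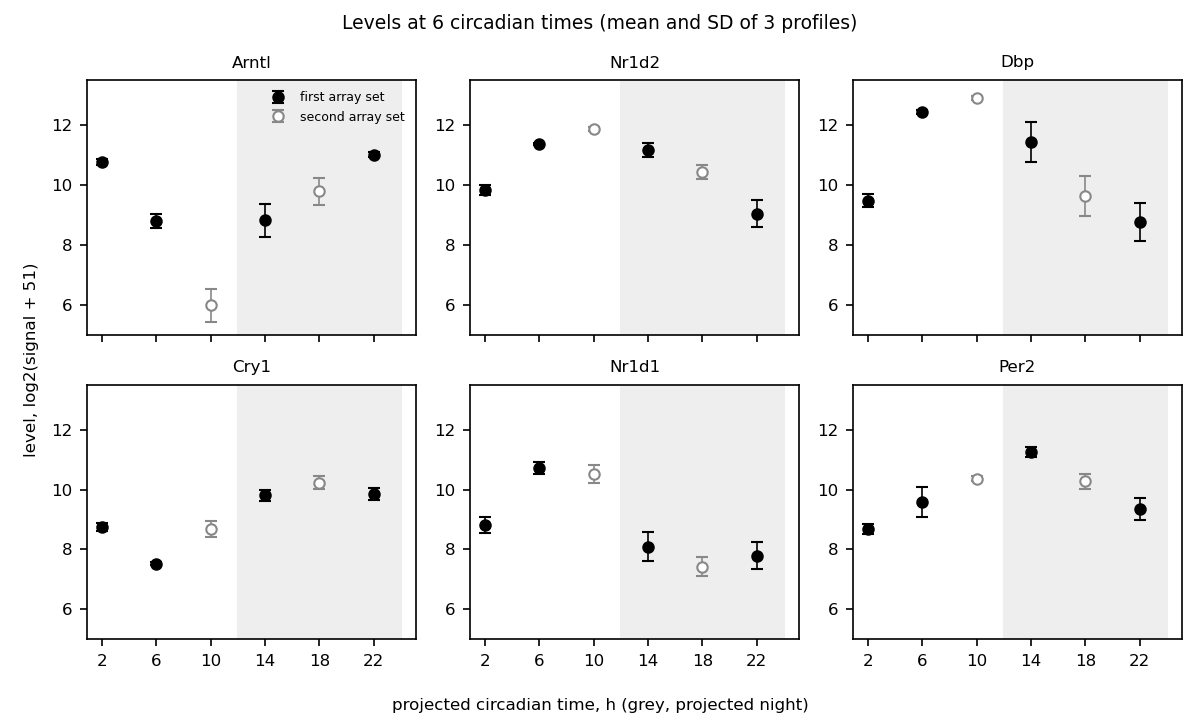
Mean level (vertical axes, log2 of signal + 51) of 6 clock genes at 6 projected circadian times (horizontal axis, h), with the SD of 3 profiles as bars. Filled points are CT2, 6, 14 and 22 on the first array set and open points CT10 and 18 on the second, and the projected night is shaded. Cry1 (0.05) and Nr1d1 (-0.30) have overlapping profiles at CT14 and CT22, whereas those of Arntl, Nr1d2, Dbp and Per2 are apart.

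Of 13 tested D-box factors and clock outputs 7 were lower at CT22 and 0 higher, against 2.75% and 1.67% of all genes. The list median was -0.41. Dbp, the D-box activator that follows E-box activity most directly, was at 11.85, 10.67 and 11.78 at CT14 and at 8.15, 9.43 and 8.71 at CT22. The mean of 50 h and 74 h B was the lowest CT14 profile and the mean of 58 h B and 82 h B the highest CT22 profile, and they still differed by more than 1 log2 unit. Dbp fell by 2.67 ± 0.32 (SE), or 6.35-fold, the largest fall of all called genes (limma, adjusted p = 0.00185), and a further Dbp probe set fell by 2.45 (adjusted p = 0.003). Tef, a second activator of the family, was at 11.66, 11.46 and 11.64 and then at 10.08, 10.03 and 10.45. Its fall of 1.40 ± 0.10 (SE; 2.64-fold) had the lowest adjusted p of the list, 0.000111. Dimmer Tef probe sets showed -0.15 (limma, adjusted p = 0.335) and -0.28 (0.161), and neither was called. Hlf, the third, fell by 0.63 ± 0.11 (SE; adjusted p = 0.0122), a call that was lost without 50 h B (adjusted p = 0.0641). Nfil3, which competes with these factors at D-boxes, overlapped between the times and showed 0.06 (adjusted p = 0.924).

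Among the outputs, Tspan4, which encodes a tetraspanin membrane protein, was at 11.91, 11.69 and 11.86 at CT14 and at 10.39, 10.88 and 10.68 at CT22, a fall of 1.17 ± 0.11 (SE; adjusted p = 0.000298). Usp2, a deubiquitinase, fell by 1.17 ± 0.21 (adjusted p = 0.0121, and 0.0612 without 50 h B). Wee1, the kinase that holds back entry into mitosis, was at 9.82, 9.78 and 9.70 and then at 9.09, 8.75 and 8.90, a fall of 0.85 ± 0.09 (adjusted p = 0.0011). A dimmer Wee1 probe set showed -0.12 (limma, adjusted p = 0.588). Pdxk, which makes the active form of vitamin B6, fell by 0.41 ± 0.07 (adjusted p = 0.00977). The CT14 and CT22 profiles of all these outputs were apart. Nampt (0.02), Klf9 (-0.30), Klf10 (0.32), Abcb1a (-0.22) and the cell cycle inhibitor Cdkn1a (0.52, adjusted p = 0.0507) were not called.

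The windows of 250 bases upstream of annotated starts, from RefSeq on GRCm38.p6, were searched on both strands for the perfect E-box, which reads the same on both. It was held by 9.41% of the 11116 tested genes with a window, by 44 of 300 genes called lower (14.7%) and by 14 of 182 called higher (7.69%). The D-box, TTATGTAA or TTACGTAA, was in 0.765% of all, 5 of the 300 and 1 of the 182. These matches describe letters and show no binding. Shown here are the windows of Tef, whose fall had the lowest adjusted p of the D-box list, and of Tspan4, each holding CACGTG (in capitals), on the strand of the gene. Tef has a further start whose window also holds CACGTG, and no window for Per2 or Wee1 was in the table used.
Tef, chr15:81811164-81811413, plus strand, E-box 138 bases before the start: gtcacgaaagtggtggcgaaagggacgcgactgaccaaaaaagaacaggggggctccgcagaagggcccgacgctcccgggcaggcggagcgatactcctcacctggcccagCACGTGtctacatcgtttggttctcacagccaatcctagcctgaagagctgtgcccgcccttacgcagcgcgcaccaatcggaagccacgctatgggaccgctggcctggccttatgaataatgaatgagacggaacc
Tspan4, chr7:141476130-141476379, plus strand, E-box 51 bases before the start: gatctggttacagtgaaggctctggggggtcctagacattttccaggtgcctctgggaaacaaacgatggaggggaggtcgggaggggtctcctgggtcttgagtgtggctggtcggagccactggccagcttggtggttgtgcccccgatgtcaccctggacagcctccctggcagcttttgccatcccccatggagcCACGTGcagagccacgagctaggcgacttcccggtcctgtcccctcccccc

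Of 20 glucocorticoid-induced genes tested, 3 were lower late in the night and 1 was higher, against 2.75% and 1.67% of all genes. The list median was -0.21. Fkbp5, a co-chaperone that the glucocorticoid receptor induces and that dampens it, was at 11.30, 11.23 and 11.29 at CT14 and at 10.34, 10.59 and 10.71 at CT22. The CT14 profiles were nearly equal and the CT22 profiles all clearly below them. The fall was 0.73 ± 0.12 (SE; 1.65-fold, limma, adjusted p = 0.0085), and a further probe set fell by 0.60 (adjusted p = 0.0152). Tsc22d3, the glucocorticoid-induced leucine zipper GILZ, was at 11.54, 11.63 and 11.59 and then at 10.84, 10.80 and 10.99, a fall of 0.71 ± 0.09 (adjusted p = 0.00262). Further Tsc22d3 probe sets fell by 0.85 and 1.01, but a dim one showed 0.12 (adjusted p = 0.343) and gave the gene this sign when marked probe sets were left out. Mertk, a receptor for the uptake of dead cells, fell by 0.54 ± 0.10 (adjusted p = 0.013, and 0.0605 without 50 h B).

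Of the 20 genes of this list, 17 had negative and 3 had positive differences. Cebpb, a transcription factor, rose by 0.21 ± 0.05 (adjusted p = 0.0469), a call lost without any 1 of the 6 profiles (0.0585 to 0.189). Zbtb16 (-0.90, adjusted p = 0.15), Fam107a (-0.82, 0.0807), Klf9 (-0.30, 0.0812), Sgk1 (-0.17, 0.356) and the receptor gene Nr3c1 (-0.28, 0.277) had negative differences that did not pass. The window of Fkbp5 is shown because, of the called members of this list, it holds an E-box (capitals). The palindrome of GNACA and TGTNC, with 3 bases between them, of the glucocorticoid receptor was in 0.36% of all genes with a window, 0 of the 300 called lower and 0 of the 182 called higher.
Fkbp5, chr17:28486150-28486399, minus strand, E-box 169 bases before the start: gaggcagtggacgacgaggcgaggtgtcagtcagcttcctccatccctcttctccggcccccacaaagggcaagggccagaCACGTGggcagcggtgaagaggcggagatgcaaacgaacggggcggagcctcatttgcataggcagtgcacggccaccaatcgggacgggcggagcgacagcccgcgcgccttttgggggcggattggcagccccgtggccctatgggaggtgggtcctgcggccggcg

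The ACTH receptor and its partner were higher at CT22. Of 35 tested genes of ACTH and cAMP signalling 3 were higher and 1 lower, against 1.67% and 2.75% of all genes. The list median was -0.01. Mc2r, the receptor for ACTH, was at 12.30, 12.44 and 12.18 at CT14 and at 12.89, 12.81 and 12.62 at CT22. The lowest CT22 profile lay above the highest CT14 profile, and the rise was 0.47 ± 0.08 (SE; 1.38-fold, limma, adjusted p = 0.00897). Its call held without each profile in turn and was lost in the fit to the 6 profiles alone. Mrap, the accessory protein that brings the receptor to the cell surface, was at 12.19, 12.20 and 12.24 and then at 12.72, 12.61 and 12.48, a rise of 0.39 ± 0.08 (adjusted p = 0.0245). That call was lost without each profile other than 82 h (0.0611 to 0.099), and a dim Mrap probe set showed -0.21 (adjusted p = 0.475).

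The phosphodiesterases that break down cAMP in these cells went in opposite directions. Pde8b was at 10.29, 10.48 and 10.02 and then at 11.10, 10.97 and 10.67, a rise of 0.65 ± 0.13 (SE; adjusted p = 0.0205). Pde8a fell by 0.34 ± 0.08 (adjusted p = 0.0284). Both sets of profiles were apart, and both calls rested on the full set: Pde8b lost it without 50 h B, 74 h, 58 h or the mean of 58 h B and 82 h B (0.0678 to 0.0747), and Pde8a without each profile other than 82 h (0.0535 to 0.101). The other 31 genes, among them adenylyl cyclases, protein kinase A subunits, Creb1 and the CRTC and SIK genes, were not called and showed -0.40 (Adcy6) to 0.17 (Crtc3). Without 50 h B, 74 h, 58 h or the mean of 58 h B and 82 h B the list had 1 higher member. It had 0 lower members without 50 h B, 74 h, 58 h or the mean of 50 h and 74 h B, and 2 without 82 h.

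None of the 14 tested steroid synthesis genes was called, 0 higher and 0 lower, and the median was 0.00. Their signals lie near the top of the scale, where array maxima were 13.67 to 13.81, and whether they are saturated was not tested. Star, which brings cholesterol into mitochondria, was at 13.69, 13.70 and 13.67 and then at 13.64, 13.59 and 13.61 (-0.07 ± 0.04 SE, adjusted p = 0.346). Its groups did not overlap, but the step was 0.07. Cyp11a1, the side-chain cleavage enzyme, stayed between 13.58 and 13.65 (-0.01, adjusted p = 0.912). Hsd3b1 (-0.02), Cyp21a1 (0.01), Cyp11b1 (0.05), Fdx1 (-0.01), Cyb5b (0.07), Nnt (0.08) and Tspo (0.11, with 1 of its further probe sets called at 0.16, adjusted p = 0.039) all lay at 0.11 or closer to 0. Below the top of the scale, the aldosterone synthase Cyp11b2 showed 0.15 (adjusted p = 0.33), Cyb5a -0.19 (0.153) and Sgpl1 -0.22 (0.159). Among the nuclear receptors of the list, Nr5a1 (SF-1), which drives steroid genes, showed -0.33 ± 0.14 (adjusted p = 0.212) and Nr0b1 (DAX-1), which represses them, 0.41 ± 0.14 (adjusted p = 0.124). Without 82 h, 1 member was called higher and 1 lower.

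Of 36 heat shock chaperones tested, 9 were lower at CT22 and 0 higher, against 2.75% and 1.67% of all genes. The list median was -0.08. Differences were negative for 31 of the 36 and positive for 5. The chaperonin subunit gene Cct3 (0.01) and the HSP90 gene Hsp90aa1 (-0.02) were among the uncalled members. Hspa1a, which encodes inducible HSP70, was at 10.81, 11.00 and 10.77 at CT14 and at 9.57, 9.27 and 9.81 at CT22. All CT14 profiles were far above all CT22 profiles, and the fall was 1.31 ± 0.16 (SE; 2.47-fold, limma, adjusted p = 0.00199). Hspa1b, its near-identical neighbour, was at 12.66, 12.79 and 12.56 and then at 11.60, 11.10 and 11.88, a fall of 1.15 ± 0.19 (2.21-fold, adjusted p = 0.00828). Further Hspa1b probe sets fell by 1.45 and 1.22. Because these copies nearly share their sequence, their signals may not be separate.

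The other called chaperones changed less. Dnajb1, an HSP40 that loads clients onto HSP70, fell by 0.77 ± 0.17 (SE; adjusted p = 0.0309), the HSP90 partner Chordc1 by 0.55 ± 0.11 (0.0171) and Bag3, an HSP70 exchange factor, by 0.43 ± 0.08 (0.0135). Hsph1, of the HSP110 family, was at 12.21, 12.24 and 12.17 and then at 11.79, 11.50 and 11.86, a fall of 0.49 ± 0.09 (adjusted p = 0.0106, and 0.054 without 50 h B). Dnaja2, a further HSP40, was at 12.02, 12.07 and 11.98 and then at 11.80, 11.75 and 11.72, which are tight groups, and fell by 0.27 ± 0.04 (adjusted p = 0.00418). Dnaja1 fell by 0.27 (adjusted p = 0.0392) and Fkbp4 by 0.25 (0.0263). Dnajb1 lost its call without each profile other than 82 h (0.0732 to 0.112), and Chordc1, Dnaja1 and Fkbp4 lost theirs without each profile other than 58 h and 82 h (0.0511 to 0.132). Bag3 lost its call without 50 h B or either averaged profile (0.0521 to 0.0617). The count of 9 was 3 without 50 h B, 4 without the mean of 50 h and 74 h B, 5 without 74 h and 4 without the mean of 58 h B and 82 h B. A heat shock element, GAA, TTC and GAA with 2 bases between them or its complement, was in the windows of 0.495% of all genes, 1 of 300 called lower and 2 of 182 called higher.

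Of 30 tested genes of folding in the endoplasmic reticulum 7 were lower and 0 higher, against 2.75% and 1.67% of all genes. The list median was -0.15. Herpud1, which takes part in the disposal of misfolded proteins, was at 11.41, 11.23 and 11.41 at CT14 and at 10.74, 10.71 and 10.77 at CT22, a fall of 0.61 ± 0.05 (SE; 1.52-fold, limma, adjusted p = 0.000249). Manf, a secreted factor induced when folding is strained, was at 12.62, 12.46 and 12.48 and then at 12.03, 11.99 and 12.06, a fall of 0.49 ± 0.05 (adjusted p = 0.0011). The profiles of both genes were tight within each time and clearly apart. Hspa5 (BiP), the main chaperone of this compartment, was at 12.76, 12.71 and 12.65 and then at 12.30, 12.37 and 12.45, a fall of 0.33 ± 0.06 (adjusted p = 0.0114, and 0.062 without 50 h B). Dnajb9, its HSP40 partner, fell by 0.48 ± 0.09 (0.0146, and 0.0731 without 50 h B).

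Edem1, which marks proteins for disposal, fell by 0.50 ± 0.10 (SE; adjusted p = 0.022), and the BiP partners Dnajb11 and Dnajc3 fell by 0.26 (0.0387) and 0.24 (0.0248). Edem1 lost its call without each profile other than 74 h and 82 h (0.0617 to 0.101), Dnajb11 without each profile other than 82 h (0.0856 to 0.142), and Dnajc3 without 50 h B, 58 h or the mean of 50 h and 74 h B (0.0634 to 0.119). The sensors and switches of the stress response were not called: Xbp1 (-0.20, adjusted p = 0.0505), Atf4 (-0.12), Atf6 (-0.27), Ern1 (-0.14), Eif2ak3 (-0.23), Ddit3 (-0.17). The count of 7 was 2 without 50 h B, 4 without the mean of 50 h and 74 h B and 4 without 58 h. The stress element of this pathway, CCAAT and CCACG with 9 bases between them on either strand, was in the window of 16 of the 11116 genes (0.144%), in 3 of 300 called lower and in 0 of 182 called higher. Hspa5 and Dnajc3 are among the 3, and the window of Hspa5 is shown with the element in capitals. No window for Manf was in the table used.
Hspa5, chr2:34771840-34772089, plus strand, element 65 bases before the start: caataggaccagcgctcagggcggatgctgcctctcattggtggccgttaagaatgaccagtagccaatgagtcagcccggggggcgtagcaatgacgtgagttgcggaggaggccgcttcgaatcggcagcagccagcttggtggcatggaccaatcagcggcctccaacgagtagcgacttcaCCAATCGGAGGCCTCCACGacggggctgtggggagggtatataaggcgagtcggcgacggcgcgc

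**Figure D4:**
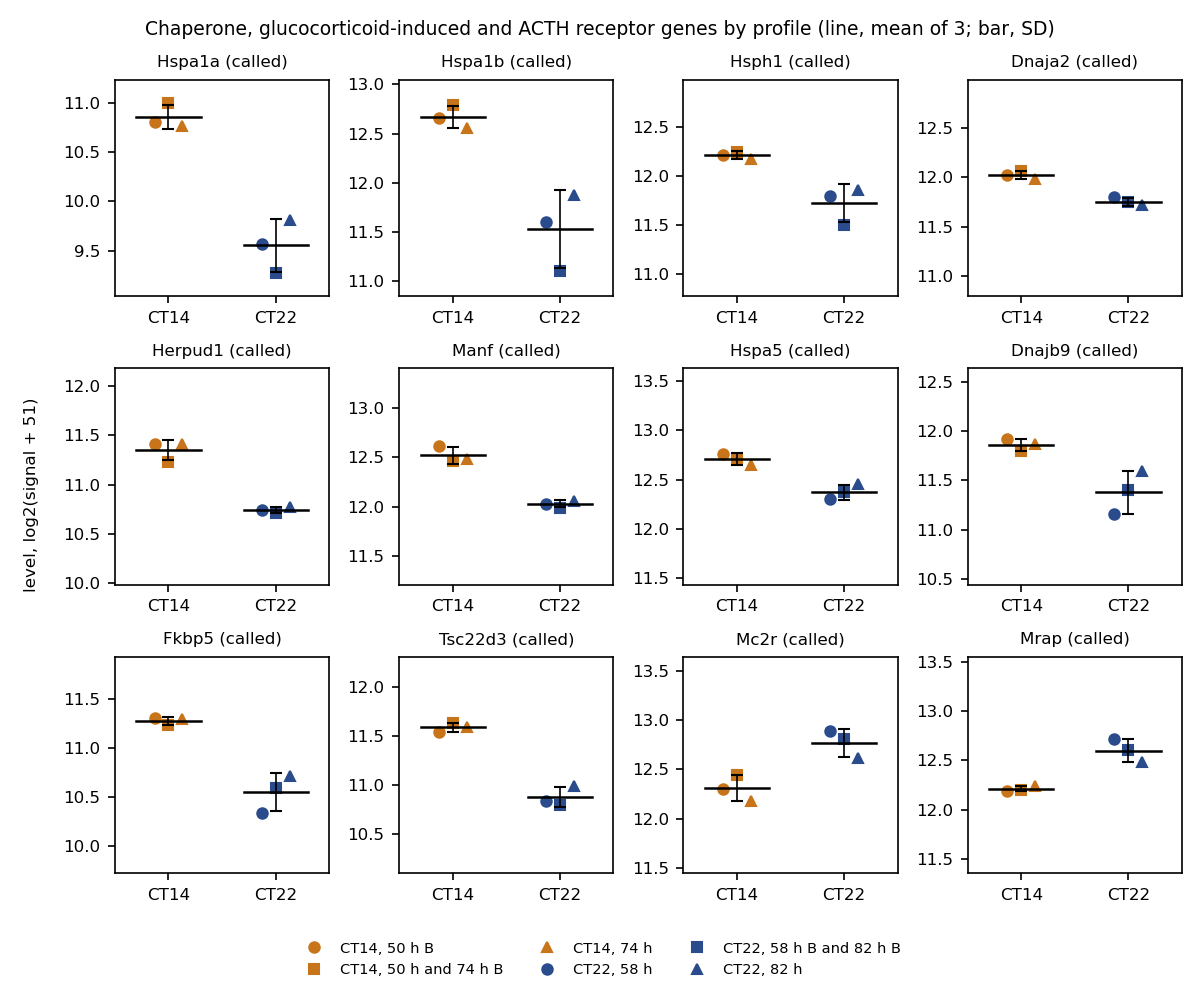
Levels of 12 genes (vertical axes, log2 of signal + 51, each spanning its own range) in the 3 profiles of CT14 (orange) and CT22 (blue), with means as lines and SDs of 3 profiles as bars. The chaperones in the top row, the endoplasmic reticulum genes in the middle row and Fkbp5 and Tsc22d3 are lower in every CT22 profile, and Mc2r and Mrap are higher in every CT22 profile.

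Of 21 tested genes of heme and iron handling 4 were lower and 0 higher, against 2.75% and 1.67% of all genes. The list median was -0.06. Alas1, the rate-limiting enzyme of heme synthesis, was at 13.18, 13.12 and 13.13 at CT14 and at 12.37, 12.55 and 12.35 at CT22, a fall of 0.72 ± 0.09 (SE; 1.65-fold, limma, adjusted p = 0.00243). The profiles of each time lay close together and did not overlap with those of the other. Alad, the next enzyme, fell by 0.34 ± 0.08 (adjusted p = 0.0413), and Hmox1, which breaks heme down, by 0.90 ± 0.22 (0.0443). Tfrc, the transferrin receptor that takes up iron, was at 11.95, 11.66 and 11.89 and then at 9.94, 10.02 and 11.34. The 82 h profile stood far above the other CT22 profiles and below the CT14 range, and the fall of 1.40 ± 0.32 had an adjusted p of 0.0324. A dimmer Tfrc probe set showed -0.26 (limma, adjusted p = 0.193). Alad and Tfrc lost their calls without each profile other than 82 h (Alad 0.0614 to 0.152, Tfrc 0.0681 to 0.126), and Hmox1 without any 1 of the 6 (0.0623 to 0.17), so that the list kept 1 lower member, Alas1, in 5 of these 6 fits.

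Of 18 cholesterol synthesis genes 1 was lower and 0 higher, and the median was -0.17. Over all genes 2.75% were called lower. In lists as short as this and the next ones, a single call does not set the list apart from that share. Hmgcs1, which makes the HMG-CoA from which cholesterol is built, was at 12.49, 12.47 and 12.38 and then at 12.05, 11.77 and 12.04, a fall of 0.49 ± 0.07 (SE; 1.40-fold, limma, adjusted p = 0.00516). Its 3 further probe sets fell by 0.46 to 0.66. Of the 13 genes of sterol sensing, 1 was lower: Stard4, a carrier of sterol between membranes, with -0.39 (adjusted p = 0.0226, lost without 50 h B at 0.108, without the mean of 50 h and 74 h B at 0.059 and without the mean of 58 h B and 82 h B at 0.0761). Of 14 genes of uptake, storage and export, 1 was lower: Npc1, which moves cholesterol out of lysosomes, with -0.40 (adjusted p = 0.0328, lost without 50 h B, 58 h, or either averaged profile at 0.0792 to 0.138). The sterol regulatory element as TCACNCCAC was in 1.26% of all genes with a window, 7 of 300 called lower and 2 of 182 called higher, and Hmgcs1 is among the 7. The synthesis list had 2 lower members without 58 h. The uptake list had 1 higher member without 58 h and 2 lower members without 82 h. The window of Hmgcs1 is shown with the element in capitals, on whichever strand it was found.
Hmgcs1, chr13:119690101-119690350, plus strand, element 137 bases before the start: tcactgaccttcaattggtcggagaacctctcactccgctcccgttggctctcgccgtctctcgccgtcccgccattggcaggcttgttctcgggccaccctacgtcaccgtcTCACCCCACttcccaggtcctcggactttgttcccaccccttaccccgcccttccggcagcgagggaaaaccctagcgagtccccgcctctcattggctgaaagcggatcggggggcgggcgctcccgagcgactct

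Amino acid transporters had 3 lower and 0 higher members of 23, against 2.75% and 1.67% of all genes. The list median was -0.10. Slc7a10, a carrier of small neutral amino acids, was at 9.34, 9.39 and 9.98 and then at 8.32, 8.27 and 8.64, a fall of 1.16 ± 0.18 (SE; 2.23-fold, limma, adjusted p = 0.00544). Slc7a5 and Slc3a2, whose proteins form a carrier of large neutral amino acids together, fell by 0.77 ± 0.14 (0.0122) and 0.37 ± 0.07 (0.0191). Their profiles did not overlap between the times, but Slc7a5 lost its call without 50 h B (0.0659) and Slc3a2 without 50 h B, 74 h or 58 h (0.0592 to 0.0933). The list had 1 lower member without 50 h B, and its median was -0.15 without 82 h.

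Among the largest rises, Fabp7, a fatty acid binding protein, came after Arntl. It was at 6.88, 6.73 and 6.97 at CT14, low on the scale, and at 8.22, 9 and 8.74 at CT22, a rise of 1.79 ± 0.20 (SE; 3.46-fold, limma, adjusted p = 0.0011). Col5a3, a chain of type V collagen, was at 9.62, 9.86 and 9.28 and then at 11.61, 11.32 and 11.14, a rise of 1.77 ± 0.14 (adjusted p = 0.000111). A dim Col5a3 probe set showed 0.02 (adjusted p = 0.929). Both genes' groups were more than 1 log2 unit apart. Slc6a2, the noradrenaline transporter, was at 7.52, 7.79 and 6.98 and then at 8.33, 9.52 and 9.16, a rise of 1.57 ± 0.28 (adjusted p = 0.0118, and 0.0527 without 50 h B). Its 3 further probe sets showed -0.02, 0.14 and 0.14, and none was called.

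Lypd6, of the LY6 family of receptor modulators, rose by 1.48 ± 0.22 (SE; adjusted p = 0.00418), the predicted gene Gm36723 by 1.46 ± 0.12 (0.000207) and Serpinb1a, an inhibitor of neutrophil proteases, by 1.35 ± 0.20 (0.00489). Cryba4, a crystallin, rose by 1.16 ± 0.20 (0.0108, and 0.0569 without 50 h B) and Crym, which binds thyroid hormone in the cytosol, by 0.98 ± 0.14 (0.00378). Slc30a2, a zinc exporter, was at 10.28, 10.49 and 9.96 and then at 11.04, 11.25 and 11.06, a rise of 0.87 ± 0.12 (0.00357). Srsf5, a splicing factor, rose by 0.91 ± 0.21 (0.0357), a call lost without each profile other than 82 h (0.0586 to 0.121). Lrrc2 rose by 0.92 ± 0.20 (0.0267), lost without 50 h B, 74 h, 58 h or the mean of 58 h B and 82 h B (0.0868 to 0.117).

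Among the largest falls outside the clock, Gstt2, a glutathione transferase, was at 10.52, 10.38 and 10.60 and then at 8.85, 9.20 and 9.64, a fall of 1.27 ± 0.15 (SE; 2.41-fold, limma, adjusted p = 0.00192). Inmt, an N-methyltransferase of indole amines, was at 10.37, 10.33 and 10.73 and then at 8.92, 9.15 and 9.50, a fall of 1.29 ± 0.25 (0.0166). In both genes the CT22 values spread more widely than those of CT14, and 82 h was the highest of them. The potassium channel gene Kcnq1 was at 9.19, 8.72 and 9.12 and then at 7.37, 7.86 and 8.29, a fall of 1.17 ± 0.20 (0.00927, and 0.0543 without 50 h B). Inmt lost its call without 50 h B, 74 h, 58 h or the mean of 58 h B and 82 h B (0.0565 to 0.0616).

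Of 29 tested chromaffin genes of the medulla, 1 was higher (Slc6a2, above) and 2 were lower, against 4.42% called over all genes, with a median of -0.07. Pnmt, which turns noradrenaline into adrenaline and is induced by glucocorticoid, was at 13.02, 12.81 and 12.89 at CT14 and at 12.22, 12.30 and 12.46 at CT22, a fall of 0.58 ± 0.14 (SE; 1.5-fold, limma, adjusted p = 0.0383), and a further probe set fell by 0.66 (0.00584). The groups were apart, but the call of the brighter probe set was lost without each profile other than 82 h (0.0743 to 0.154). Maoa, which degrades monoamines, fell by 0.37 ± 0.08 (0.0238), lost without 50 h B, the mean of 50 h and 74 h B, or 58 h (0.0753 to 0.0924). The list had 1 lower member without the mean of 58 h B and 82 h B, and 0 lower without 50 h B, 58 h or the mean of 50 h and 74 h B. Th (0.01), Dbh (-0.17), Chga (-0.04) and Chgb (-0.01) were not called. 

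Matrix genes had 3 higher and 3 lower members of 31, against 1.67% and 2.75% of all genes. The list median was -0.13. Beside Col5a3, its partner chain Col5a1 rose by 0.56 ± 0.10 (SE; limma, adjusted p = 0.0114, and 0.0612 without 50 h B) and Sparc by 0.14 (0.0383). P4ha1, which hydroxylates collagen prolines, was at 10.89, 10.80 and 10.89 and then at 10.50, 10.39 and 10.44, a fall of 0.42 ± 0.07 (0.00825). The protease inhibitors Timp3 and Timp2 fell by 0.29 ± 0.05 (0.0114) and 0.53 ± 0.13 (0.0453), and the 3 further Timp3 probe sets fell by 0.37 to 0.62. Sparc and Timp2 lost their calls without each profile other than 82 h (0.071 to 0.149). Without 50 h B the list had 1 higher member, and without 82 h 5 lower. Its median was 0.03 without 58 h and -0.28 without 82 h.

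Of 23 DNA replication genes 3 were higher and 0 lower, against 1.67% and 2.75% of all genes. The list median was 0.18 (0.11 without 58 h). The 3 genes encode subunits of the helicase that opens DNA at origins. Mcm7 was at 10.14, 10.26 and 9.94 and then at 10.75, 10.76 and 10.37, a rise of 0.51 ± 0.10 (SE; limma, adjusted p = 0.0199). Mcm5 rose by 0.56 ± 0.14 (0.0457) and Mcm6 by 0.56 ± 0.14 (0.05, just under the threshold). The 82 h profile was the lowest of CT22 in all 3 genes. The calls of Mcm5 and Mcm6 were lost without each profile other than 82 h (0.0826 to 0.162) and that of Mcm7 without 50 h B, 74 h, 58 h or the mean of 58 h B and 82 h B (0.0675 to 0.0761). The list had 6 higher members without 82 h, 1 without the mean of 50 h and 74 h B and 0 without any other profile. Of 18 mitosis genes 0 were called, with a median of 0.08.

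Of 26 immediate early genes, which answer hormones and nerve input within minutes, 1 was higher and 1 lower, against 1.67% and 2.75% of all genes. The list median was -0.16 (-0.08 without the mean of 50 h and 74 h B and -0.11 without 58 h). Jun fell by 0.42 ± 0.09 (SE; limma, adjusted p = 0.0248) and a further Jun probe set by 0.70 (0.00355), but the call of the first was lost without each profile other than 82 h (0.0518 to 0.111). Ier5 rose by 0.47 ± 0.09 (0.0171), lost without 50 h B (0.0747) and without the mean of 50 h and 74 h B (0.0521). Without 82 h 2 members were lower. Egr1 showed -1.31 (adjusted p = 0.0763), Nr4a1 -0.94 (0.253) and Fos -0.67 (0.344), differences that did not pass.

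Called shares of the large housekeeping families, both directions together, lay near or below the 4.42% of all genes. Of all genes 1.67% were called higher. Of 45 cytosolic ribosomal protein genes 0 were called (median 0.00), and of 87 respiratory chain and ATP synthase genes 0 (median 0.04). Of 76 mitochondrial ribosomal protein genes 3 were higher (median 0.04): Mrpl17 by 0.25, Mrpl41 by 0.23 and Mrps34 by 0.17 (limma, adjusted p 0.03 to 0.0361). Of 38 proteasome genes 2 were higher (median 0.07): Psmb5 by 0.27 (0.0115) and Psma1 by 0.18 (0.0271). CT22 lay wholly above CT14 for 20 mitochondrial ribosomal and 16 proteasome genes, and wholly below for 1 of each. Over all genes these shares were 9.08% and 13.8%. Of 45 translation initiation factors, Eif4g3 rose by 0.32 (0.0237) and Eif6 fell by 0.24 (0.0354). Of 18 cold-inducible and SR splicing genes Srsf5 was the 1 called, and of 19 genes of the zona glomerulosa and zonation 0 were. Psmb5 lost its call without 50 h B (0.0553). Mrpl17, Mrps34 and Psma1 lost theirs without each profile other than 82 h (0.0597 to 0.121). Mrpl41 lost its call without 50 h B, 74 h, 58 h or the mean of 58 h B and 82 h B (0.0813 to 0.126), and Eif4g3 without 50 h B, 74 h or the mean of 58 h B and 82 h B (0.062 to 0.0921). Eif6 lost its call without each profile other than 74 h (0.0603 to 0.139). Without 82 h, 4 mitochondrial ribosomal, 4 proteasome and 3 initiation factor genes were higher.

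**Figure D5:**
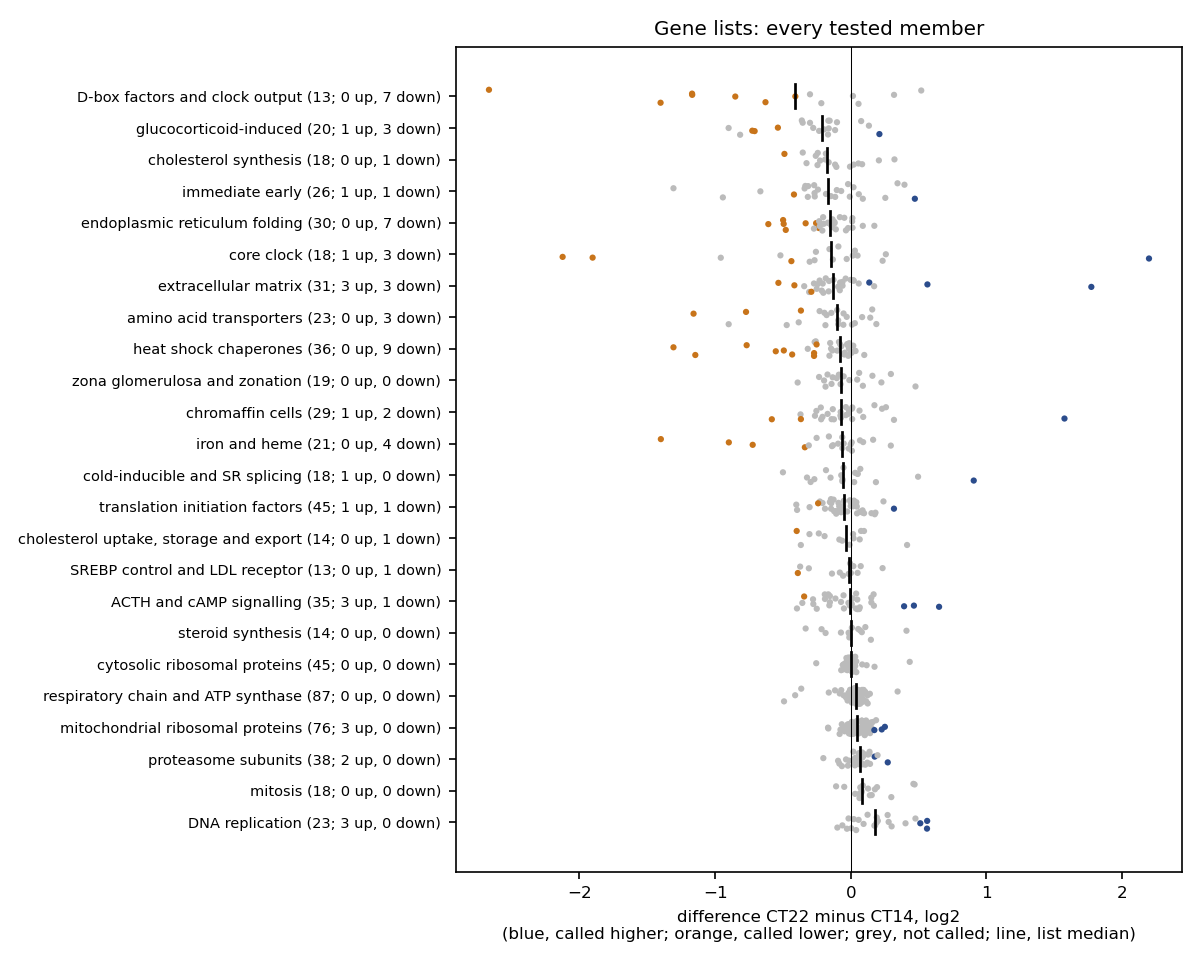
Differences CT22 minus CT14 (horizontal axis, log2) of every tested member of 24 gene lists (vertical axis, with the number tested and called). Blue points are called higher, orange points called lower and grey points not called, and black lines are list medians. D-box factors have the lowest median (-0.41) and DNA replication the highest (0.18), and no chaperone, endoplasmic reticulum or heme gene is called higher.

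Other cell types were followed through marker lists. Of 8 fat cell markers tested 0 were called, but 7 had negative differences, with a median of -0.20 and the lowest at -1.44 (Ucp1) and -1.16 (Cidec). Without 82 h, and with 74 h and 82 h both left out, 2 of them were called lower. The median was -0.37 without 82 h and -0.10 without 58 h. Their summed signal was 45720 to 60370 at CT14 and 35290 to 56430 at CT22, highest in 74 h and 82 h, where Adipoq was at 12.99 and 12.86 against 12.26 to 12.63 in the other profiles. With 74 h and 82 h both left out, 159 genes were called higher and 344 lower, of which 122 and 235 were among the 232 and 382. Of 9 macrophage markers 1 was called, Adgre1, higher by 0.27 (limma, adjusted p = 0.029, lost without 50 h B, 74 h or either averaged profile at 0.0646 to 0.108), while 7 of the 9 had negative differences and the median was -0.24 (-0.03 without 58 h). Without 82 h or the mean of 50 h and 74 h B, 1 of them was called lower. The summed signal was 14850 to 16950 and then 11200 to 17360, the lowest in 58 h. Of 9 endothelial markers 1 was called, Cldn5, higher by 0.75 (0.0347, lost without each profile other than 58 h at 0.0568 to 0.126), with sums of 13700 to 14460 and 13080 to 14810. Liver markers summed to 1781 to 2784 and 1797 to 1857, the highest in 74 h, where Alb was at 9.34, and 0 of 5 tested were called. Of the lists for skeletal muscle, red blood cells, kidney, lymphocytes and Schwann cells 0 members were called, and no list's sums were apart between the times. Acta1, the defining muscle marker, was at 6.26 to 6.51 and Hba-a1 of red cells at 7.87 to 8.27. The part of other cell types in the results was not tested.

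Most of the falls belonged to genes that were highest at CT14 among the times on the first array set. CT10 and CT18 are not counted, so a peak there would go unseen. Over these 4 circadian times (2, 6, 14 and 22), the mean was highest at CT14 for 342 of the 382 genes lower at CT22 (89.5%), against 32.4% of all tested genes. It was lowest at CT22 for 230 (60.2%), against 26.7% of all. Of the 232 genes higher at CT22, the mean was lowest at CT14 for 195 (84.1%), highest at CT22 for 138 (59.5%) and highest at CT2 for 73 (31.5%). The same shares over all tested genes were 24.7%, 21.6% and 20.6%. Because the contrast fixes which of the 2 times is higher, these shares describe the genes and are no test. Among examples of the first kind, Tfrc averaged 11.83 at CT14 against 9.71 at CT2 and 9.85 at CT6, and Gstt2 10.50 against 9.53 and 9.98. Fabp7 was lowest at CT14, with 6.86 against 9.01 at CT2 and 9.31 at CT6.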

How the data were processed

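The authors deposited 1 intensity per probe set and array on a linear scale, for 45101 probe sets, and per the labels these are whole adrenals on Affymetrix arrays. The summary and scaling behind them are not given in the sources used here. The intensities were used as deposited, with no further normalization. Each array pair that differed by at most 1.06-fold was averaged.

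Signals were taken as log2(signal + 51). Probe sets with 1 gene symbol (34958, against 932 with several and 9211 with none) were kept when bright (40th percentile, signal 183.3). The brightest probe set by mean stood for a gene, which left 13880 genes. CT22 was compared with CT14 in limma 3.58.1 (R 4.3.3; lmFit, and eBayes with trend) over the 12 profiles of CT2, 6, 14 and 22, with two-sided tests and p-values adjusted over all genes by Benjamini-Hochberg. The procedure was tested on simulated data. Summaries and figures used Python 3.11.15 with pandas 2.3.3, numpy 2.4.6 and matplotlib 3.10.9.

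Named genes are every called gene of the core clock and D-box lists, the 12 largest rises and 12 largest falls among called genes with groups that did not overlap, up to 4 called members with the lowest p of every other list, and every tested steroid synthesis gene. Other genes were named after their values were seen. Members and lists were chosen with earlier results of these data known. Alternatives changed the offset, filter, normalization, choice of probe set, variance model, arrays in the fit and profile left out.

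The labels carry letters and hours but no replicate numbers. Arrays of the same cycle and letter deviated together from their group means (correlations 0.317, 0.566, 0.256 and 0.104), and near-copies cross letters and cycles, so a block could be fitted to arrays only, with near-copies counted as separate.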

Additional observations from a re-analysis of the deposited data

How the results depend on the processing

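Counts are genes called higher and lower at CT22, 232 and 382 as reported. A fit to the 6 profiles of CT14 and CT22 alone called 32 and 108, and a fit to all 18 profiles, with both array sets, 118 and 201. Fits to arrays, where near-copies count as separate samples and p-values are too small, called 892 and 1355 with no replicate block, 825 and 1272 with the cycle as a block, and 939 and 1431 with the title letter as a replicate block. A fit chosen after seeing the data, with title letter and cycle as a replicate block, called 949 and 1428. Leaving out 1 profile at a time gave 53 to 353 higher and 77 to 554 lower (53 and 77 without 50 h B, 135 and 185 without the mean of 50 h and 74 h B, 72 and 228 without 74 h, 141 and 196 without 58 h, 71 and 188 without the mean of 58 h B and 82 h B, 353 and 554 without 82 h). The cause of the differences between these fits was not tested. Another offset, filter, median centring, quantile normalization, variance model or choice of probe set kept both counts within 1.5 times of those reported. With the probe sets marked _a_at, _s_at or _x_at left out, Tsc22d3 showed 0.12 (limma, adjusted p = 0.329) in place of -0.71. A dimmer probe set then stood for the gene, and no other named gene that was still tested changed direction. In that run 540 of the 614 called genes were tested, and 12 of them had the other sign. With the probe sets of a gene averaged, 6 of the 614 did. Of 70 named called genes 35 lost their call with the 6 profiles alone. Among these 70, 39 genes had further tested probe sets, 57 in number. Of these probe sets 52 went the same way as the one used, 23 of them past the threshold. The remaining 5 went the other way, 0 of them past it. The share of rises depended on quantile normalization, and dim genes and genes near the top of the scale limit the precision.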

Other observations

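The following called genes stand in no list described above. They were picked after their values were seen, among genes that kept their call without each profile in turn, so they bear on no pathway as a whole. Each value is the difference of CT22 minus CT14 on the log2 scale with its adjusted p from limma. Sec23b, of the coat of vesicles that leave the endoplasmic reticulum, fell by 0.38 (0.00357), Edem2, which marks misfolded proteins, by 0.42 (0.00544) and Pdia5, a disulfide isomerase, by 0.44 (0.00763). Nanp, of sialic acid synthesis, fell by 0.50 (0.00199) and Gnpda1, which converts glucosamine 6-phosphate, by 0.54 (0.00396). Srm, the spermidine synthase, fell by 0.58 (0.00127).

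Acvr1, a BMP receptor, was at 11.56, 10.98 and 11.44 at CT14 and at 10.15, 10.52 and 10.19 at CT22, a fall of 2.05-fold (0.00873), and its groups did not overlap. Bmp4 fell by 0.75 (0.00828), and the co-receptor Tgfbr3 rose by 0.36 (0.00825). With a profile left out, the highest adjusted p was 0.0484 for Acvr1, 0.0464 for Bmp4 and 0.0412 for Tgfbr3, close to the threshold. Gja1, which encodes the gap junction protein connexin 43, was at 11.34, 11.51 and 11.43 and then at 12.05, 12.07 and 12.13, a rise of 0.66 (0.00158) with a highest adjusted p of 0.0134 when a profile was left out. Thra, a thyroid hormone receptor, rose by 0.53 (0.00928).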
